A study of Rattus norvegicus with 9 samples.

Results

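The urea cycle and glutamine genes followed here are Nags, Cps1, Otc, Slc25a15, Ass1, Asl, Arg1, Glul and Gls2. They belong to 1 pathway, and their probes were found by matching the RefSeq accession of each array probe to these 9 gene names or their older names, a rule that uses no measured value. They are 9 of the 13438 named genes on the array, with 10 of its 41012 probes, since Glul has 2 probes and each of the others has 1. Liver RNA came from male Wistar rats in 3 groups of 3 rats, with 1 array per rat. The control group was neither irradiated nor given HSC. The TBI group received 6.5 Gy of total-body irradiation from a 60Co source at 2 Gy/min. The HSC + TBI group received Hong Shan Capsule (HSC, a mixture of medicinal herbs) by stomach tube on each of 3 days and then the same exposure. The HSC dose is 30 mg/kg/day in the sample labels and 10 g/kg/day in the series text. The authors' paper also gives 10 g/kg for these arrays, though 1 of its captions prints 10 mg/kg. The dose in the labels is not explained there. The livers were collected at 24 h from exposure, the ages of the rats were not given, and no group given HSC alone was analysed here.

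The urea cycle turns ammonia from amino acid breakdown into urea, and runs in full in hepatocytes. In the mitochondrion, Nags makes N-acetylglutamate, the activator that Cps1 needs to join ammonia and bicarbonate into carbamoyl phosphate, and Otc transfers this to ornithine to form citrulline. Slc25a15 exchanges ornithine and citrulline across the inner membrane, and Ass1, Asl and Arg1 complete the cycle in the cytosol. Periportal hepatocytes are known for urea synthesis and for Gls2, the liver glutaminase that frees ammonia from glutamine, while a thin layer of perivenous hepatocytes holds Glul, the glutamine synthetase that captures ammonia the cycle has missed.

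Values are log2 signals after quantile normalization, and differences between groups are differences of these log2 values. A gene was called where limma gave a Benjamini-Hochberg adjusted p under 0.05, with a fold change of at least 1.5. The adjustment ran over 25367 probes, those that every array of 1 or more groups showed above background. All 10 probes of the 9 genes were above background on all 9 arrays, at 18.2 to 3732 times the local background before normalization. The share of probes above background was 56.6% to 59.3% in the control livers, 63.6% to 69.5% in the TBI livers, with the highest share in TBI rat 3, and 58.7% to 60.4% in the HSC + TBI livers. The control livers shared 1 slide, the TBI livers another, and the HSC + TBI livers lay on 2 further slides. No slide held more than 1 group, so slide and group cannot be told apart in any of the 3 comparisons. The 8 hepatocyte markers, Alb, Ttr, Apoa1, Tf, Ahsg, Serpina1, Fga and Hnf4a, were all above background. Of these, 0 of 8 was called in any comparison, and the log2 of their summed signal lay between 20.3 and 20.6 in the 3 groups. Quantile normalization gives equal values to equal ranks, and Tf stood at 18.16 in all 3 HSC + TBI livers. A sum led by such bright genes therefore cannot show whether the share of hepatocytes was steady. In RNA from whole liver, fewer cells of a type and less RNA per cell cannot be told apart.

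None of the 9 genes was called in any of the 3 comparisons. In TBI against control, 0 of 9 was called, beside 7.25% of all probes tested (3.54% higher and 3.71% lower). In HSC + TBI against control, 0 of 9 was called, beside 3.23% of all probes (1.19% higher and 2.05% lower), and in HSC + TBI against TBI, 0 of 9, beside 0.796%. The signals of most of these genes lay close together in the 9 livers, while Cps1, Slc25a15 and Glul spanned more than 1 log2 unit.

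**Figure D1:**
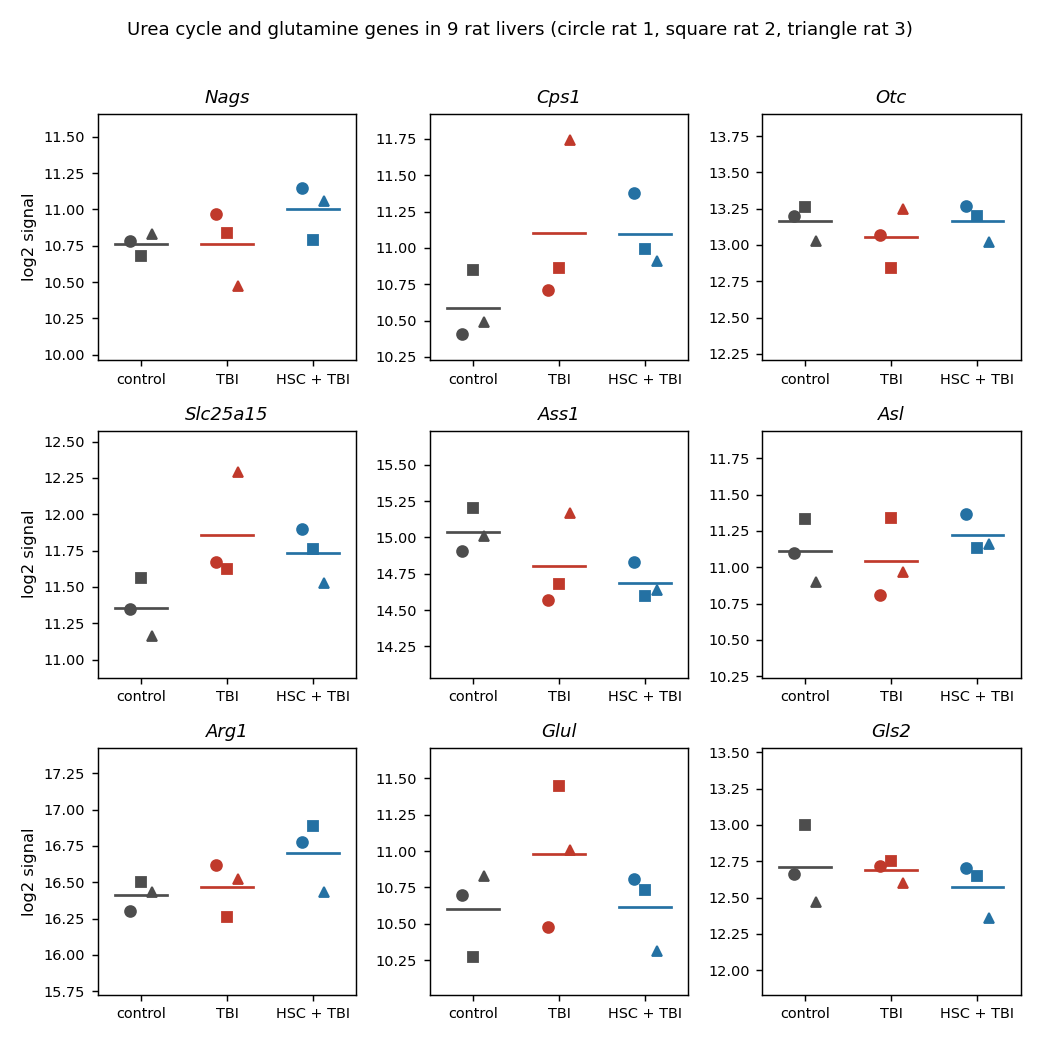
Log2 signal of each of the 9 genes in each liver (points) with the group mean (bars), in panels that share 1 length of axis but not its position. The 3 control livers lie below the 3 TBI livers for Slc25a15 and below the 3 HSC + TBI livers for Cps1, TBI rat 3 is highest for both genes, the 3 HSC + TBI livers lie below the 3 control livers for Ass1, and the other groups overlap.

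Nags, whose product switches Cps1 on, had log2 signals of 10.78, 10.68 and 10.83 in control rats 1 to 3, 10.97, 10.84 and 10.47 in the TBI rats and 11.15, 10.79 and 11.06 in the HSC + TBI rats. The 3 groups overlapped, with TBI rat 3 lowest and HSC + TBI rat 1 highest. TBI against control differed by -0.00 (95% interval -0.37 to 0.36, limma adjusted p = 0.99), and HSC + TBI against control by 0.23 (-0.13 to 0.60, adjusted p = 0.468). HSC + TBI against TBI differed by 0.24 (-0.12 to 0.60, adjusted p = 0.504). The first of these intervals lies within a 1.5-fold change in either direction, and the others reach just past it.

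Cps1, the first and rate-limiting step of the cycle, had log2 signals of 10.41, 10.85 and 10.49 in the control rats, 10.71, 10.86 and 11.74 in the TBI rats and 11.38, 10.99 and 10.91 in the HSC + TBI rats. Every HSC + TBI liver lay above every control liver, while TBI rat 1 lay below control rat 2 and TBI rat 3 lay far above the other TBI rats. TBI against control was a difference of 0.52 ± 0.27 (SE, 3 rats per group), or 1.43-fold with an interval of 0.929 to 2.20, and it did not pass the test (limma adjusted p = 0.277). Without TBI rat 3 it was 0.20. HSC + TBI against control was almost as large, at 0.51 (95% interval -0.12 to 1.13, adjusted p = 0.349), and HSC + TBI against TBI was -0.01 (-0.63 to 0.61, adjusted p = 0.991). That last interval covers changes from 0.645-fold to 1.53-fold.

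Slc25a15, the ornithine and citrulline carrier, had log2 signals of 11.35, 11.56 and 11.16 in the control rats, 11.67, 11.62 and 12.29 in the TBI rats and 11.90, 11.76 and 11.53 in the HSC + TBI rats. All 3 TBI livers lay above all 3 control livers, with TBI rat 3 again the highest. The difference in TBI against control was 0.51 ± 0.20 (SE), 1.42-fold with an interval of 1.03 to 1.96. Its unadjusted p in limma was 0.0357 and its adjusted p was 0.164. It was the 1 gene of 9 with an unadjusted p under 0.05 in this comparison, beside 25.5% of all probes, and the 1 of 9 without overlap of the groups, beside 28.9%. Without TBI rat 3 the difference was 0.30, and without control rat 3 it was 0.41. HSC + TBI against control was 0.38 (-0.09 to 0.84, adjusted p = 0.351), and HSC + TBI against TBI was -0.13 (-0.60 to 0.33, adjusted p = 0.789).

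Cps1 and Slc25a15 had similar profiles over the 9 livers. With each gene's own mean subtracted, their log2 signals differed by a root mean square of 0.145, while their own root mean squares were 0.39 and 0.31. Slc25a15 was the 7th nearest to Cps1 of 8530 genes above background on all 9 arrays. The nearest to Cps1 were Zbed4 (0.0744), Ripk4 (0.101) and Ptp4a1 (0.129), against a median of 0.452 over all these genes. Among the nearest to Slc25a15 were Cdk9 (0.0805) and Ptp4a1 (0.0876), against a median of 0.379, with Cps1 the 38th. Ptp4a1, a protein tyrosine phosphatase, was thus among the 3 nearest to both. These likenesses over 9 arrays are descriptions without a test. TBI rat 3, highest for Cps1 and Slc25a15, was also the array with the largest share of probes above background, and its part in the likeness was not tested.

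**Figure D2:**
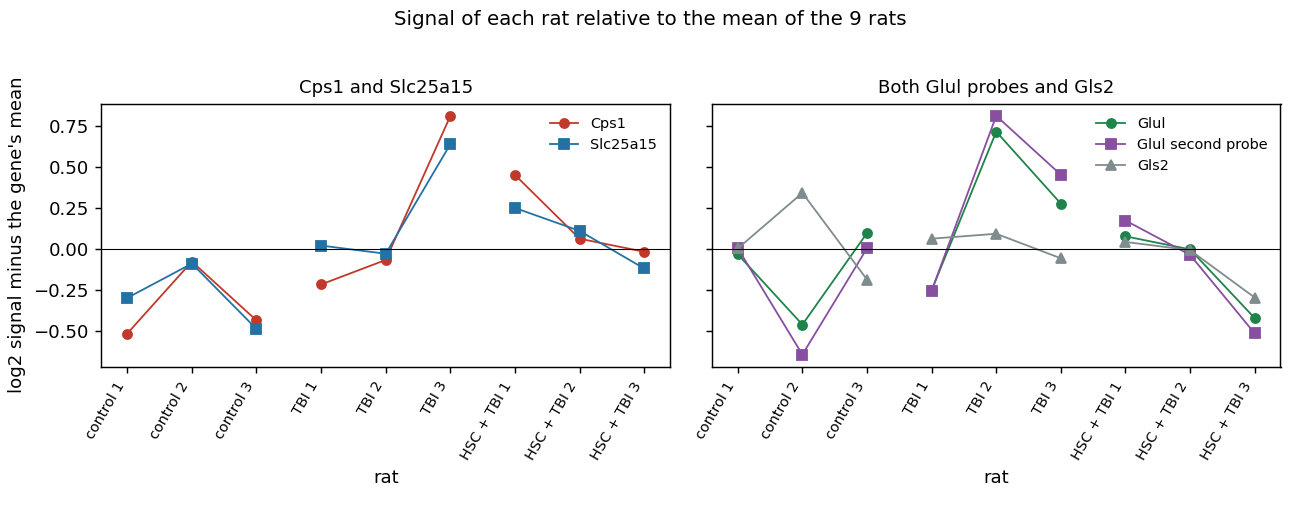
Log2 signal of each liver minus the gene's mean over the 9 livers, joined within each group, for Cps1 and Slc25a15 on the left and both Glul probes and Gls2 on the right. Cps1 and Slc25a15 peak together in TBI rat 3, the 2 Glul probes peak together in TBI rat 2, and Gls2 is highest in control rat 2.

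Since Cps1 and Slc25a15 had similar profiles, the 250 bases before their annotated start sites are shown. They were taken from RefSeq promoters of rat build GRCr8, at chr9:76063613-76063862 on the plus strand for Cps1 and chr16:76336620-76336869 on the plus strand for Slc25a15. Capitals mark the letters found by a search of both strands for CAAAGTCCA, a sequence bound by Hnf4a (read here on the other strand), and for CCAAT (likewise on the other strand).
Cps1: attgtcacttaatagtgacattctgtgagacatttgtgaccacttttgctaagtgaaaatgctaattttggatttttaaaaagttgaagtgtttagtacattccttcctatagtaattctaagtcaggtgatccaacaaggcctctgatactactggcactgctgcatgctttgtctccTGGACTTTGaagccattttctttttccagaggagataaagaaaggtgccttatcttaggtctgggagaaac
Slc25a15: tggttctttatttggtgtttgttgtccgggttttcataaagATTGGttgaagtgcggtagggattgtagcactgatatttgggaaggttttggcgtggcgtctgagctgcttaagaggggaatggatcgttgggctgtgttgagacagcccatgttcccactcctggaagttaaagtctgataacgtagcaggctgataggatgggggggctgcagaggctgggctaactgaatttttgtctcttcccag
The match in Cps1 begins 71 bases before the start site and the match in Slc25a15 begins 209 bases before it, so no searched motif was shared by the pair. Of 33469 rat promoters of the same length (250 bases before the start site and 50 after), 0.391% held CAAAGTCCA and 37.5% held CCAAT. Of the 9 genes, 8 had a promoter in the table, Arg1 being the one not listed. Glul had 3 matches to CCAAT, and Ass1 had 1 to TATAAA, found in 14.2% of promoters. The letters TGACGTCA of the cyclic AMP response element (1.83% of promoters), TTNCGNAA of C/EBP factors (2.5%), AGAACA of the glucocorticoid receptor (20.7%) and CAAAGGTCA of Hnf4a-related receptors (0.424%) did not occur in these 8 windows. That says only that these letters are not in the windows.

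Otc, the mitochondrial enzyme that makes citrulline, varied least of the 9 genes. Its log2 signals were 13.20, 13.26 and 13.03 in the control rats, 13.07, 12.84 and 13.25 in the TBI rats and 13.27, 13.20 and 13.02 in the HSC + TBI rats, a range of 0.43 over the 9 livers. The 3 groups overlapped throughout. The differences were -0.11 (95% interval -0.43 to 0.21, limma adjusted p = 0.671) for TBI against control, 0.00 (-0.32 to 0.32, adjusted p = 0.993) for HSC + TBI against control and 0.11 (-0.21 to 0.43, adjusted p = 0.733) for HSC + TBI against TBI. All 3 intervals lie within a 1.5-fold change in either direction.

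Of the cytosolic enzymes, Ass1, which joins citrulline and aspartate, had log2 signals of 14.91, 15.20 and 15.01 in the control rats, 14.57, 14.68 and 15.17 in the TBI rats and 14.83, 14.60 and 14.64 in the HSC + TBI rats. All 3 HSC + TBI livers lay below all 3 control livers, and so did TBI rats 1 and 2, while TBI rat 3 lay within the controls. HSC + TBI against control differed by -0.35 ± 0.17 (SE), or 0.783-fold with an interval of 0.597 to 1.03, and did not pass the test (limma adjusted p = 0.302). TBI against control was -0.23 (95% interval -0.63 to 0.16, adjusted p = 0.43), and -0.41 without TBI rat 3. HSC + TBI against TBI was -0.12 (-0.51 to 0.27, adjusted p = 0.769). Ass1 and Cps1 were the 2 genes of 9 without overlap between HSC + TBI and control, 1 lower and 1 higher, beside 31.7% of all probes. In HSC + TBI against TBI, 0 of 9 lacked overlap, beside 21.4%.

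Asl, which splits argininosuccinate into arginine and fumarate, had log2 signals of 11.10, 11.33 and 10.90 in the control rats, 10.81, 11.34 and 10.97 in the TBI rats and 11.37, 11.13 and 11.16 in the HSC + TBI rats. The groups overlapped, and control rat 2, TBI rat 2 and HSC + TBI rat 1 reached almost the same signal. TBI against control was -0.07 (95% interval -0.46 to 0.32, limma adjusted p = 0.829), HSC + TBI against control was 0.11 (-0.28 to 0.50, adjusted p = 0.779), and HSC + TBI against TBI was 0.18 (-0.21 to 0.57, adjusted p = 0.644).

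Arg1, which releases urea from arginine, had log2 signals of 16.30, 16.50 and 16.43 in the control rats, 16.62, 16.26 and 16.52 in the TBI rats and 16.78, 16.89 and 16.43 in the HSC + TBI rats. HSC + TBI rats 1 and 2 lay above all other livers, while HSC + TBI rat 3 lay within the controls. HSC + TBI against control was 0.29 (95% interval -0.07 to 0.65, limma adjusted p = 0.348), HSC + TBI against TBI was 0.23 (-0.12 to 0.59, adjusted p = 0.502) and TBI against control was 0.06 (-0.30 to 0.41, adjusted p = 0.848). With each array shifted by its 75th percentile in place of quantile normalization, HSC + TBI against control grew to 0.58, still not called.

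Glul, the glutamine synthetase, had log2 signals of 10.70, 10.27 and 10.83 in the control rats, 10.48, 11.45 and 11.01 in the TBI rats and 10.81, 10.73 and 10.31 in the HSC + TBI rats. TBI rats 2 and 3 lay above all other livers, while TBI rat 1 lay within the controls. TBI against control was 0.38 ± 0.26 (SE), 1.30-fold with an interval of 0.858 to 1.97 (limma adjusted p = 0.403), and 0.14 without TBI rat 2. HSC + TBI against control was 0.02 (95% interval -0.58 to 0.62, adjusted p = 0.983), and HSC + TBI against TBI was -0.36 (-0.96 to 0.24, adjusted p = 0.537). The second Glul probe, dimmer on every array, gave 10.11, 9.46 and 10.11 in the control rats, 9.85, 10.92 and 10.56 in the TBI rats and 10.28, 10.07 and 9.59 in the HSC + TBI rats. It placed the same rats highest and lowest, control rat 2 being lowest and TBI rat 2 highest on both, and the centred signals of the 2 probes differed by a root mean square of 0.107. On this probe TBI against control was 0.55 (-0.15 to 1.25, adjusted p = 0.303). The genes nearest to Glul over the 9 livers were Hnrnph3 (0.177), Kcnj3 (0.181) and Madd (0.183), farther from it than the 2 probes were from each other.

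Gls2, the liver glutaminase, had log2 signals of 12.66, 13.00 and 12.47 in the control rats, 12.72, 12.75 and 12.60 in the TBI rats and 12.70, 12.65 and 12.36 in the HSC + TBI rats. The 3 TBI livers lay inside the range of the controls. The differences were -0.02 (95% interval -0.38 to 0.34, limma adjusted p = 0.951) for TBI against control, -0.13 (-0.50 to 0.23, adjusted p = 0.698) for HSC + TBI against control and -0.11 (-0.48 to 0.25, adjusted p = 0.763) for HSC + TBI against TBI, and the 3 intervals lie within a 1.5-fold change. In TBI rat 2, where Glul was highest, Gls2 was also the highest of the TBI rats, by little, and lay below control rat 2.

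**Figure D3:**
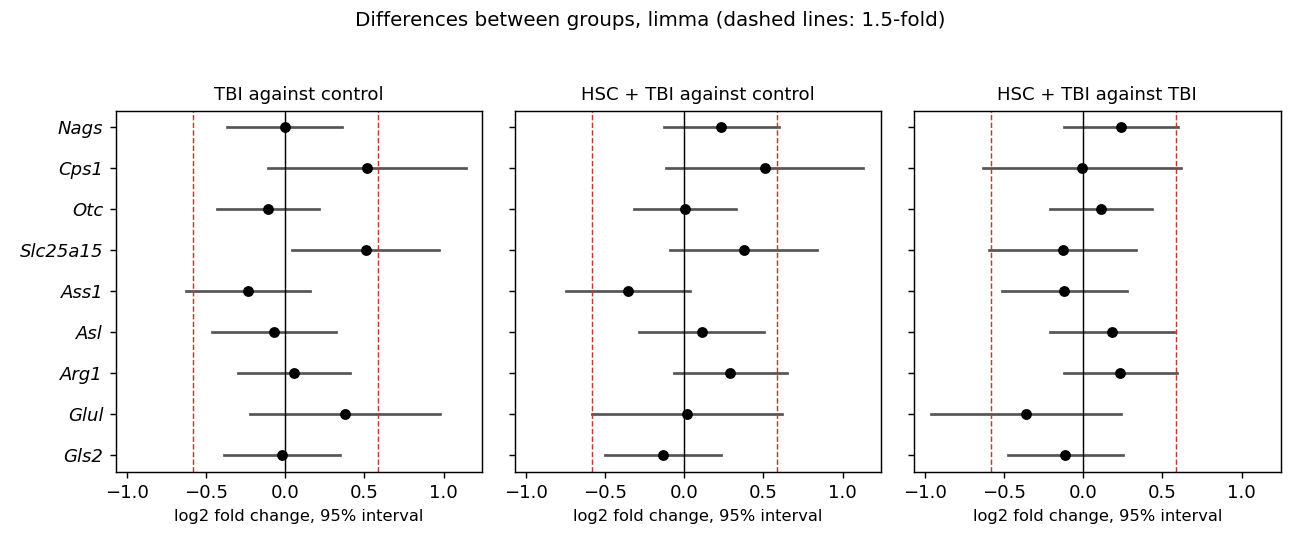
Difference in log2 signal (points) with its 95% interval from limma (lines) for each of the 9 genes in the 3 comparisons, with dashed lines at a 1.5-fold change. The intervals of 5 genes in TBI against control, 3 in HSC + TBI against control and 4 in HSC + TBI against TBI lie between the dashed lines, and the interval of Slc25a15 in TBI against control leaves out 0.

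Over the 9 genes, the median difference was -0.00 in TBI against control, 0.11 in HSC + TBI against control and -0.01 in HSC + TBI against TBI, beside -0.01, 0.05 and 0.06 over all probes tested. The median size of the difference, regardless of sign, was 0.11, 0.23 and 0.13, beside 0.24, 0.21 and 0.20 over all probes. In HSC + TBI against control 0 of 9 had an unadjusted p under 0.05, beside 19.6% of all probes, and in HSC + TBI against TBI 0 of 9, beside 16.3%. The methods' t-test was run here with unequal variances, which the methods do not specify. At an unadjusted p under 0.05 and a fold of 1.5 it picked 0 of 9 in each comparison. Beside this, it picked 8.37%, 6.65% and 3.67% of all probes in the same order. With the spread of these genes, a call in TBI against control needed an observed change of 1.5-fold (Otc) to 2.09-fold (Cps1). It needed 1.55-fold to 2.34-fold in HSC + TBI against control and 1.73-fold to 2.89-fold in HSC + TBI against TBI. Smaller observed changes in Cps1 and Glul therefore could not be called with 3 rats per group. These folds do not give the size of true change that would be found.

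Around the 9 genes stand the enzymes and carriers that feed them, and of 41 such neighbours in ammonia and glutamine handling 33 were tested. In TBI against control 2 rose and 1 fell, so 3 of 33 were called beside 7.25% of all probes, and in HSC + TBI against control 2 of 33 beside 3.23%. Slc38a2, a carrier that brings glutamine and other neutral amino acids into cells, had log2 signals of 9.78, 10.36 and 10.01 in the control rats, 11.33, 11.58 and 12.12 in the TBI rats and 11.93, 11.38 and 10.95 in the HSC + TBI rats. All irradiated livers of both groups lay above all controls, and the gene rose by 1.63 with TBI (limma adjusted p = 0.0142) and by 1.37 with HSC + TBI (adjusted p = 0.0422). Its second probe was called in both comparisons too, at 1.5 and 1.39. Slc25a22, a mitochondrial glutamate carrier, rose by 0.78 with TBI (adjusted p = 0.0146), from 11.60, 11.64 and 11.61 in the control rats to 12.50, 12.39 and 12.32 in the TBI rats. Its HSC + TBI signals of 12.31, 12.47 and 11.97 also lay above all controls, a difference of 0.63 that did not pass the test (adjusted p = 0.0506). Slc38a4, a neutral amino acid carrier abundant in liver, fell by 0.60 with TBI (adjusted p = 0.0469), from 15.18, 15.22 and 15.00 to 14.38, 14.54 and 14.67, and its HSC + TBI signals of 15.24, 14.79 and 14.85 overlapped those of the controls. Slc1a5, another glutamine carrier, fell by 1.48 with HSC + TBI (adjusted p = 0.0356), from 6.79, 7.57 and 7.55 in the control rats to 5.42, 6.23 and 5.80 in the HSC + TBI rats. With normexp background correction the difference was -0.73. Its TBI signals of 6.48, 7.24 and 7.09 overlapped those of the controls. In HSC + TBI against TBI 0 of 33 was called. The list's median differences were 0.04, 0.23 and -0.02 in the 3 comparisons.

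Of 20 regulators of these genes 19 were tested, and in TBI against control 3 rose and 1 fell, so 4 of 19 were called beside 7.25% of all probes. Gcgr, the glucagon receptor, fell by 0.74 (limma adjusted p = 0.0177), from 13.79, 14.09 and 14.12 in the control rats to 13.45, 13.28 and 13.06 in the TBI rats. Nr1h4, the bile acid receptor FXR, rose by 0.66 (adjusted p = 0.0188), from 9.16, 9 and 9.19 to 9.85, 9.60 and 9.87. Foxa3, a hepatocyte transcription factor, rose by 1.13 (adjusted p = 0.0444), from 8.42, 7.70 and 7.72 to 9.56, 9.13 and 8.56. Cebpb, a transcription factor of the acute phase response, rose by 0.76 (adjusted p = 0.0356), from 8.43, 8.86 and 8.86 to 9.39, 9.26 and 9.77. In all 4 genes neither irradiated group overlapped the controls, beside 28.9% of all probes in TBI against control and 31.7% in HSC + TBI against control. The 4 were picked by their call in TBI against control, and both comparisons use the same control rats. Their lack of overlap is therefore no added support. None of the 19 was called in HSC + TBI against control, where the differences were -0.59 for Gcgr (adjusted p = 0.0618), 0.52 for Nr1h4 (adjusted p = 0.0692), 1.01 for Foxa3 (adjusted p = 0.0937) and 0.31 for Cebpb (adjusted p = 0.376). None was called in HSC + TBI against TBI either, so a difference between the irradiated groups was not shown. The list's median differences were 0.05, 0.10 and 0.04.

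Zonal genes were compared because Glul and the urea cycle enzymes lie in opposite parts of the liver lobule. Of 8 periportal genes tested, 0 was called in any comparison, beside 7.25%, 3.23% and 0.796% of all probes. Their median differences were -0.22, -0.04 and 0.18. Of 14 perivenous genes tested, 3 (Oat, Rhbg and Slc1a2) are also among the 41 neighbours. In TBI against control 12 of the 14 had a difference above 0, the median was 0.36, and 0 was called. Of the 14, 13 were above background on all 9 arrays. The other, Lgr5, had the largest difference, at 1.20, and was above background on 7 arrays. It was dimmest in control rat 3 and HSC + TBI rat 3. It therefore probably entered the test only through the TBI group, where it was high. The filter would then have favoured its direction, which is no added support. Without TBI rat 3, 2 of the 14 were called, beside 2535 of 25724 probes in that fit. With the slide as a random block 7 were called, beside 4527 of 25367 probes, but that block cannot separate slide from group. Cyp7a1, the rate-limiting enzyme of bile acid synthesis, was the 1 perivenous gene of 14 called, beside 3.23% of all probes, and rose by 1.27 in HSC + TBI against control (limma adjusted p = 0.0451), from 11.82, 10.88 and 11.22 to 12.42, 12.67 and 12.66. Its TBI signals of 11.80, 12.40 and 11.54 overlapped those of the controls, with a difference of 0.60 (adjusted p = 0.213).

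Each of these 10 calls was lost when at least 1 rat was left out, while the differences kept their sign. In TBI against control, Slc38a2 (1.41 to 1.8 over the 9 fits) and Slc25a22 (0.73 to 0.83) were lost without control rat 3. Gcgr (-0.84 to -0.64) and Nr1h4 (0.60 to 0.74) were lost without control rat 2 and without control rat 3. Cebpb (0.61 to 0.86) was called only without TBI rat 2, Foxa3 (0.89 to 1.39) only without control rat 1 or TBI rat 3, and Slc38a4 (-0.68 to -0.52) only without TBI rat 3 or HSC + TBI rat 1. In HSC + TBI against control, Slc38a2 (1.11 to 1.60) was called only without TBI rat 1, TBI rat 3 or HSC + TBI rat 3. Slc1a5 (-1.74 to -1.28) was called only without control rat 1 or any TBI rat, and Cyp7a1 (1.07 to 1.53) only without control rat 1, TBI rat 2 or TBI rat 3.

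Markers of other liver cells were set beside these carriers and regulators. Signals were summed before taking the log2, so the sums mostly follow the brightest markers. For 8 macrophage markers 0 of 8 was called in any comparison, beside 7.25%, 3.23% and 0.796% of all probes. All 8 were nonetheless lower in HSC + TBI than in TBI, with a median difference of -1.03, beside 0.06 over all probes. All 8 were also lower in HSC + TBI than in control (median -0.55, beside 0.05). In TBI against control 7 were higher and 1 lower (median 0.37, beside -0.01). The log2 of their summed signal was 15.9 to 16.4 in the control livers, 15.9 to 16.8 in the TBI livers and 15.4 to 15.5 in the HSC + TBI livers. That of 7 lymphocyte markers, 5 of which were tested, was 10.0 to 10.9, 9.44 to 10.4 and 9.05 to 9.37 in the same order. Of the 5, 1 was called, Cd79b, lower in both comparisons with control, beside 7.25% and 3.23% of all probes called. Cd79b was above background on 3 arrays and entered the test only through the control group, where it was high, so its direction was fixed by the filter. Of 7 stellate cell markers 1 was called, Lrat in TBI against control, beside 7.25% of all probes. Its difference was -0.63 (limma adjusted p = 0.0237). Neither Lrat nor Cd79b was followed with rats left out. None of 4 endothelial, 2 bile duct or 3 red cell precursor markers tested was called. The part of these cells in the differences of the carriers was not tested.

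**Figure D4:**
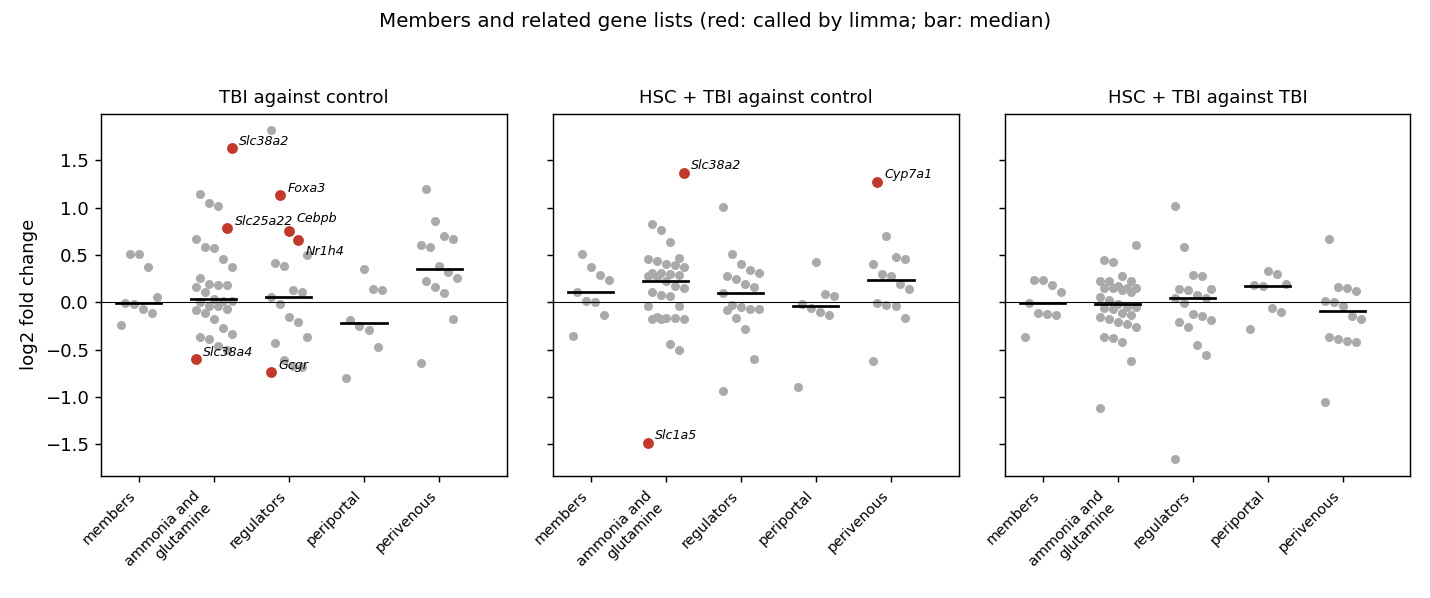
Difference in log2 signal of each tested gene (points) for the 9 genes and the 4 lists around them, with genes called by limma in red and named, and the median of each list as a bar. No gene among the 9 is red, and the red genes lie among the carriers, the regulators and, for Cyp7a1, the perivenous genes. The grey regulator at 1.82 in TBI against control is Onecut1, named after its values were seen, which did not pass the test (limma adjusted p = 0.195).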

How the data were processed

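Liver RNA of 9 rats was hybridized to one-colour Agilent 4 x 44K rat arrays. Spot intensity was read by the authors with Feature Extraction 10.7.3.1 (per the file headers), which gave a background-subtracted processed signal and quality flags. The authors also deposited quantile-normalized log2 values per probe, used here as an alternative only. Here the processed signals (control spots and 84 to 115 outlier spots per array left out) were floored at 1, log2-transformed, quantile-normalized over the 9 arrays and averaged per probe with limma 3.58.1 in R 4.3.3. They differed from the authors' log2 values by a median of 0.03 on each array. A probe counted as above background where more than 0.5 of its spots carried that flag. Probe names came from RefSeq accessions (assembly GRCr8, names only), for 16968 probes, and the brightest probe stood for a gene.

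Groups came from the sample labels and were compared by lmFit and eBayes in 1 fit of 3 group means, which was also tested on simulated data. The labels do not say whether rats were housed or processed together, and the smallest p of an exact two-sided permutation of 3 against 3 rats is 0.1. The 9 genes, the lists and the tests were chosen with earlier results of these data known, so they are no independent support for any direction. Genes named are the 9, list members called in a comparison, and for each of the 9 that spans over 1 log2 unit the 3 genes nearest by root mean square difference of centred signals. A result under this rule is not reported here. Promoters came from RefSeq (GRCr8). Same-numbered rats of different groups deviated together weakly or not at all (r from -0.14 to 0.19, over 0.1 in 2 of 9 pairs). For rats 1 to 3, r was 0.19, 0.12 and 0.098 between control and TBI. It was 0.0009, 0.014 and 0.015 between control and HSC + TBI, and -0.14, -0.016 and -0.031 between TBI and HSC + TBI. The replicate number was therefore not taken as pairing.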

Additional observations from a re-analysis of the deposited data

How the results depend on the processing

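Under each alternative run, 0 of the 9 genes was called in each comparison, also with any 1 rat left out. The alternatives were scaling by the 75th percentile, normexp correction (offset 50), the authors' own log2 values, no filter or a stricter one on dim probes, fits with outlier spots or of the compared groups alone, the methods' t-test, no fold threshold, the second Glul probe, the replicate number as a block and the slide as a random block. With the replicate block 0 of 9 was called, 6 of the 10 calls in the lists were kept (0 by the methods' t-test with adjusted p, 4 with no filter on dim probes, 5 with the compared groups alone, 7 with normexp and 9 or 10 under the others), and 5 of 9 rats correlated best with their own number. The slide as a random block had a consensus correlation of -0.33. With it the limma adjusted p in TBI against control was 0.00509 for Slc25a15, 0.0172 for Cps1 and 0.0485 for Glul. All 3 genes stayed under a 1.5-fold change, and other alternatives for them reached 0.438, 0.549 and 0.614. In the same comparison this block called 8 neighbours, 8 regulators and 7 perivenous genes, beside 4527 of 25367 probes. No slide held more than 1 group, so the block cannot separate slide from group. Its negative correlation also narrows the standard errors, so no change is read from these p-values and calls. The 75th percentile shift moved Arg1 by more than the spread between rats, to 0.58 in HSC + TBI against control and 0.47 in HSC + TBI against TBI, and Otc to 0.16 in HSC + TBI against control. The number of all probes called ran from 7 (the methods' t-test, adjusted) to 4527 (slide block) around 1839 in TBI against control, from 2 to 2573 around 820 in HSC + TBI against control, and from 0 to 2256 around 202 in HSC + TBI against TBI. Of the 10 calls in the lists, 0 was kept without control rat 3, 2 without control rat 2 and 4 to 9 without any 1 other rat, and the cause was not tested. With 3 arrays per group the precision is limited.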
